A study of Homo sapiens with 14 samples.

Results

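Of 65774 consensus regions of open chromatin in the breast cancer line SUM149PT, 761 (1.16%) were accessible in the parental line and in clones E, EM1 and EM3 but much less accessible in clones EM2, M1 and M2. They were picked by level. Each count was scaled to a library total of 1000000 (counts per 1000000, CPM), raised by 0.5 and converted to log2, and the 2 libraries of a group were averaged, with E represented by its replicate 2 alone. A region was kept where EM2, M1 and M2 were each at least 1 (log2) below the lowest of Parental, E, EM1 and EM3, and where EM2 was less than 2 above the higher of M1 and M2. Another 129 regions met the first condition and not the second. "Open" and "closed" below mean these relative levels, not the presence or absence of signal. Because the levels themselves chose the regions, the open-to-closed differences are given as a description, and tests are given only for differences that the choice did not use.

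The assay was ATAC-seq, in which the Tn5 transposase cuts and tags DNA where it is not wrapped around nucleosomes, so that counts rise with accessibility. The line SUM149PT was established from inflammatory breast cancer and is labelled negative for the oestrogen and progesterone receptors. The 7 groups, of 2 libraries each, were the unselected line (Parental) and 6 derived clonal lines: E, EM1, EM2, EM3, M1 and M2. All were untreated. In the study's naming, E stands for epithelial, EM for intermediate and M for mesenchymal. Each clone is a single line, so a difference between clones cannot be told apart from a difference between the cells that founded them, and nothing in the labels says that the 2 libraries of a line came from separate cultures. The p-values therefore measure only the spread between these libraries, which may be technical.

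Most accessible regions away from gene starts are distal regulatory elements, among them enhancers, which transcription factors hold open and which act on genes that may lie far away in the sequence. Epithelial cells keep a set of such elements open through factors of the grainyhead, ETS (ELF3, EHF) and p63 families. In the epithelial-mesenchymal transition (EMT), repressors such as SNAI1 and the ZEB proteins, which bind the E-box CACCTG, silence epithelial genes, and cells can stop at intermediate states that keep features of both ends. EM2 is named as one such intermediate line, beside EM1 and EM3. In 653 of the 761 regions its mean level was nearer to the higher M clone than to the lower of EM1 and EM3, and in 108 it was not. The choice favours the former, since it put EM2 at least 1 below EM1 and EM3 and under 2 above the higher M clone. These counts are a description, and nothing is read from them.

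The library totals lay between 8138944 counts, in E replicate 1, and 16786823 counts, in EM3 replicate 1. As a check on the labels, the region over the promoter of KRT8, a keratin of simple epithelia, had between 13.8 and 29.2 CPM in the 8 libraries of Parental, E, EM1 and EM3 and between 2.26 and 9.13 CPM in the 6 of EM2, M1 and M2. The region over the promoter of VIM, the mesenchymal filament vimentin, ran from 9.67 to 42.9 CPM in the former and from 42.2 to 60.2 CPM in the latter. At the promoter of ZEB1, an EMT repressor, the 2 sets overlapped, with 15.1 to 20.4 CPM and 18.2 to 27.4 CPM. No region lay over a listed promoter of the hormone receptor genes ESR1 and PGR or of the blood cell marker PTPRC. The library labelled E replicate 1 stood apart. At 12 regions where M2 had signal and where the 10 libraries of the groups other than E and M2 had 0 counts, E replicate 1 had 23.3% of the M2 level and E replicate 2 had 1.95%. E replicate 1 took no part in choosing the 761 regions, and results that include it are given with and without it.

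The sequences of 4 promoters and 1 microRNA under closed regions are shown first. The first 3 are printed for the E-box CACCTG, whose share among the promoters under closed regions departed by the most percentage points from that among promoters over any region, and PLAAT1 for the grainyhead half-site pair AACNNGTT and its place in the densest cluster of closed regions. CHI3L1 and TDRD5 fall under the naming rule given with the processing, while CLTB and PLAAT1 were chosen after their values had been seen. Each line gives the 250 bases before a transcript start, 5′ to 3′ on the gene's strand, from RefSeq (GRCh38.p14, the same build as the hg38 regions). Capitals mark CACCTG on either strand (read as CAGGTG on the other) in the first 3 and AACNNGTT, which is its own reverse complement, in the fourth.
CHI3L1, minus strand, chr1:203186705-203186954: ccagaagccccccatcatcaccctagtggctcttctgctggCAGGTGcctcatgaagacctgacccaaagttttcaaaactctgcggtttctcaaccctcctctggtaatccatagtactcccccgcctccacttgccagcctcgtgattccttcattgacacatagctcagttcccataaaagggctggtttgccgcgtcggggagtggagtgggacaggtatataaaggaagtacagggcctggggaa
TDRD5, plus strand, chr1:179591363-179591612: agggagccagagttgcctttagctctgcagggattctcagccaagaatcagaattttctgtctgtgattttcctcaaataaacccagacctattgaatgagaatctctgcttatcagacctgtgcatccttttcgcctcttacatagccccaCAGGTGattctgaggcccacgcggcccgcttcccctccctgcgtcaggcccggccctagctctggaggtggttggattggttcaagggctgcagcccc
CLTB, minus strand, chr5:176410824-176411073: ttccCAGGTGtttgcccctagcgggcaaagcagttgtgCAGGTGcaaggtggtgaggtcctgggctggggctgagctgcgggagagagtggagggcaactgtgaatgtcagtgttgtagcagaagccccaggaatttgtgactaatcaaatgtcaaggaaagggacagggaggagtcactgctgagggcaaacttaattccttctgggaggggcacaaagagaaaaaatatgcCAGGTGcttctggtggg
PLAAT1, plus strand, chr3:193240972-193241221: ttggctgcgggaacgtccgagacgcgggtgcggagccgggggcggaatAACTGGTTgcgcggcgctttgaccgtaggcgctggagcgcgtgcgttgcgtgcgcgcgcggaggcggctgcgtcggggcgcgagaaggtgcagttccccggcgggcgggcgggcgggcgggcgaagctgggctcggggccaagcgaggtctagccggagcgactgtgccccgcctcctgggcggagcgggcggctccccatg

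CHI3L1 encodes the secreted chitinase-like glycoprotein YKL-40, and the closed region over its start (chr1:203186483-203187287) covers all 250 bases shown. Its 7 open libraries used in the choice ran from 29.2 to 51.3 CPM with a median of 42.9 CPM, E replicate 1 had 50.4 CPM, and the 6 libraries of EM2, M1 and M2 ran from 0.821 to 4.33 CPM with a median of 2.04 CPM. The 2 sets of libraries were far apart and did not overlap. TDRD5, a tudor-domain protein of the germline, has 1 E-box match in the window shown, of which 103 bases lie in the region chr1:179591510-179592080. A second start of TDRD5 lies in the same region, and the 250 bases before it, not shown, hold 2 more matches. The open libraries there ran from 11.9 to 20.7 CPM with a median of 16.4 CPM, E replicate 1 had 18.3 CPM and the closed libraries ran from 0.155 to 0.646 CPM. The CLTB promoter, of the clathrin light chain B gene, holds 3 matches within the region chr5:176410764-176411123, which also lies inside the neighbouring gene ARL10. Levels over it were 6.21 to 10.04 CPM in the 7 open libraries, 9.58 CPM in E replicate 1 and 0.108 to 2.30 CPM in the closed ones.

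Promoters could be read at 18 protein-coding genes under closed regions, through 22 windows of 300 bases (250 before to 50 after a start), several of which share a gene and part of their sequence. CACCTG was in 10 of the 22 windows (45.5%), against 18.1% of the 11275 windows that lay over any region and 19.96% of the 22183 windows of protein-coding genes in the table. Among the 147 windows over regions closed in M1 and M2 with EM2 open, described below, the share was 58.5%. AACNNGTT was in 2 windows, those of FGD3 and PLAAT1 (9.09% against 2.52% of windows with any region). A window was counted where any part of it lay over a region, so a match can lie outside the region. Of the 250 bases before the FGD3 start only 17 lie in its closed region, and their AACNNGTT and CACCTG matches lie outside those 17. The AP-1 site TGANTCA was in 1 window (4.55% against 5.07%). These are counts of letters in few windows and were not tested. A match is not a bound site, and the regions away from promoters, which are nearly all of them, were not searched because no genome sequence was used here.

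The microRNA gene MIRLET7G lies on the minus strand at chr3:52268278-52268361, partly under the closed region chr3:52268100-52268345 inside WDR82. It makes a member of the let-7 family, known for repressing RAS, HMGA2 and LIN28 and for its loss in many cancers, and its mature 5p arm is shown with the seed (bases 2 to 8) in capitals.
hsa-let-7g-5p: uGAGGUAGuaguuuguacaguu

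That region had 5.22 and 5.72 CPM in Parental, 5.04 and 6.34 CPM in E, 6.90 and 9.07 CPM in EM1 and 4.94 and 7.66 CPM in EM3. It had 1.39 and 2.46 CPM in EM2, 0.107 and 0.205 CPM in M1 and 0.108 and 0.0688 CPM in M2. All 8 open libraries were above all 6 closed ones, with EM2 between the open groups and the M clones. The amount of let-7g itself was not measured. Hairpins of the microRNA table lay within 10 kb of 6 closed regions in all, and in the other 5 the hairpin was outside the region.

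Across all 761 regions the median level in the open libraries was 9.73 and 9.85 CPM in Parental, 7.86 and 9.78 CPM in E, 10.04 and 10.6 CPM in EM1 and 8.16 and 9.53 CPM in EM3. In EM2 it was 1.78 and 2.22 CPM, in M1 0.747 and 0.616 CPM, and in M2 0.538 and 0.413 CPM. The median over all 65774 regions stayed between 8.40 and 10.9 CPM in every library, so the closed regions were of ordinary level in the open groups. They held 0.798% to 0.985% of the counts of each open library, 0.200% and 0.253% in EM2, 0.117% and 0.109% in M1, and 0.0895% and 0.0817% in M2. In 749 regions all 7 open libraries used in the choice were above all 6 closed ones, which held for 5.77% of all regions, a share that the choice itself sets for its own regions.

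**Figure D1:**
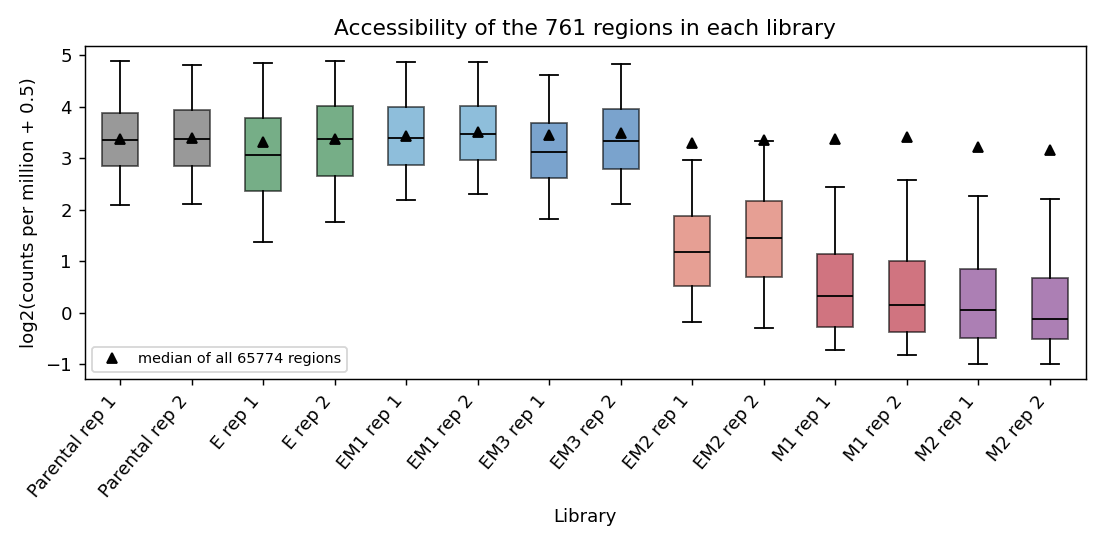
Levels of the 761 regions closed in EM2, M1 and M2 in each of the 14 libraries, as log2(CPM + 0.5). Boxes span the quartiles with a line at the median, whiskers run from the 5th to the 95th percentile, and triangles give the median of all 65774 regions, which the boxes of EM2, M1 and M2 lie below.

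E replicate 1 gave the only levels on the open side that had no part in the choice. It was above every library of EM2, M1 and M2 in 700 of the 761 regions (92.0%), which was so for 15.2% of all regions. Within that library, 400 regions lay inside the range of the other 7 open libraries, 280 below it and 81 above it. The closed regions were thus mostly open in this library too, with more of them under the open range than over it. The choice held those 7 libraries high and not this one, and the split was not taken over all regions, so the difference is a description. The M2-like signal of E replicate 1, given above, moved with this difference, and its part in it was not tested. Since E replicate 2 is a second library of the same clone and was used in the choice, this is a repeat of the library and not of the clone.

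The gap between the lowest open group and the highest closed group had a median of 1.36 (log2) and a highest value of 4.03. It was at least 1.5 in 299 regions, at least 2 in 107, at least 3 in 7 and at least 4 in 1. The lowest open group was EM3 in 274 regions, E in 273, Parental in 153 and EM1 in 61. Just inside the limit of 1 were chr9:11159428-11159847, with a gap of 1.0004, and a region at SLC35B4 with 1.0007, and just outside it were 2 regions of chromosome 5 with 0.9990 and 0.9999. On the second condition, regions at ZFHX3 and SORCS3 lay just inside with EM2 1.98 and 1.99 above the higher M clone, and regions at TNFSF18 and PLEKHF2 just outside with 2.00 and 2.01. The levels form a continuum across both limits, and the number of regions follows from where the limits were put.

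By group mean EM2 was the highest of the 3 closed groups in 625 regions, M1 in 84 and M2 in 52. The choice bounded how far EM2 could lie above the M clones, and this difference was not tested. The difference of EM2 from the higher M clone had a median of 0.66 (log2) and ran from -3.37 to 1.99, with 505 regions under 1 and 256 between 1 and 2. EM2 was below the higher M clone in 136 regions and below both M clones in 23. EM2 replicate 2 was above EM2 replicate 1 in 474 regions (62.3%, against 50.9% of all regions). At TGM5, for example, EM2 had 10.9 and 31.3 CPM, at ASTN2 8.12 and 19.4 CPM, and at LAMB3 10.98 and 20.5 CPM. Its replicate 2 thus lay closer to the open groups at these 3 regions, and the same rule applied without EM2 replicate 2 kept 1110 regions, while without EM2 replicate 1 it kept 689.

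**Figure D2:**
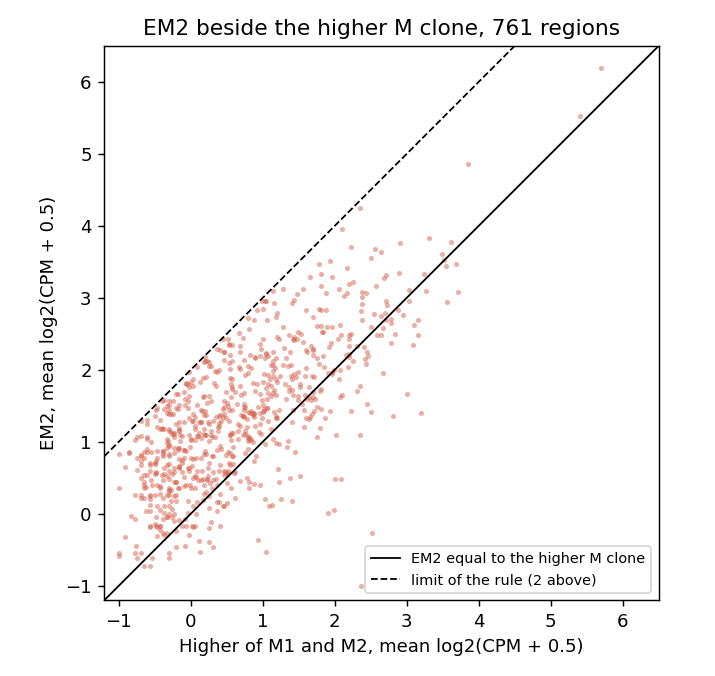
The group mean of EM2 beside the higher of M1 and M2 in the 761 regions, on the log2(CPM + 0.5) scale, with lines at equality and at the limit of 2 that the choice put on EM2. Most points lie above equality, and 136 lie below it.

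Counting error limits what can be said of the lowest levels. The median sum of counts over both libraries was 53 in EM2, 17 in M1 and 11 in M2. Both libraries had 0 counts in 1 region in EM2, 7 in M1 and 22 in M2, and the sum was 3 counts or fewer in 3, 63 and 150 regions. A sum of 0 still allows up to 3 counts, which is 0.117 CPM in EM2, 0.125 CPM in M1 and 0.126 CPM in M2, for counting error only.

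The closed regions with the highest open levels within 10 kb of a protein-coding gene were those of NBPF1, C1orf116, TGM5, ASTN2, CHI3L1, GPR37L1, LAMB3 and ATP13A4. The CPM values are not divided by width, so a wide region collects more. C1orf116, an androgen-responsive gene of epithelia (chr1:207027184-207027694), had 51.6 to 87.0 CPM in the 7 open libraries, 65.9 CPM in E replicate 1, and 24.7 and 32.7 CPM in EM2, against 4.16 and 6.02 CPM in M1 and 12.2 and 15.8 CPM in M2. It remained the more accessible in EM2 of the 3 closed groups. TGM5, a transglutaminase of the epidermal envelope (chr15:43253792-43254428), had 34.2 to 65.8 CPM in the 7 open libraries and 2.19 to 5.06 CPM in the M clones, with the 2 EM2 values given above in between. LAMB3, the beta chain of laminin-332, which anchors basal epithelial cells (chr1:209655850-209656196), had 30.3 to 49.3 CPM in the 7 open libraries, 20.3 CPM in E replicate 1 and 2.77 to 4.65 CPM in the M clones. E replicate 1 fell just below the higher EM2 library there, which had 20.5 CPM.

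GPR37L1, an orphan receptor better known from glia, has 3 closed regions among its 5, at chr1:202106331-202106689, chr1:202107085-202107779 and chr1:202112605-202113823. The last had 29.03 to 49.99 CPM in the 7 open libraries and 46.2 CPM in E replicate 1. It had 13.1 and 10.95 CPM in EM2, 5.23 and 4.79 CPM in M1, and 5.49 and 5.99 CPM in M2. Open and closed libraries did not overlap, and EM2 was again the highest of the closed groups. NBPF1, with 148 to 220 CPM in the open libraries and 17.8 to 80.9 CPM in the closed ones, belongs to a family of near-identical copies, and its reads may come in part from another copy.

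**Figure D3:**
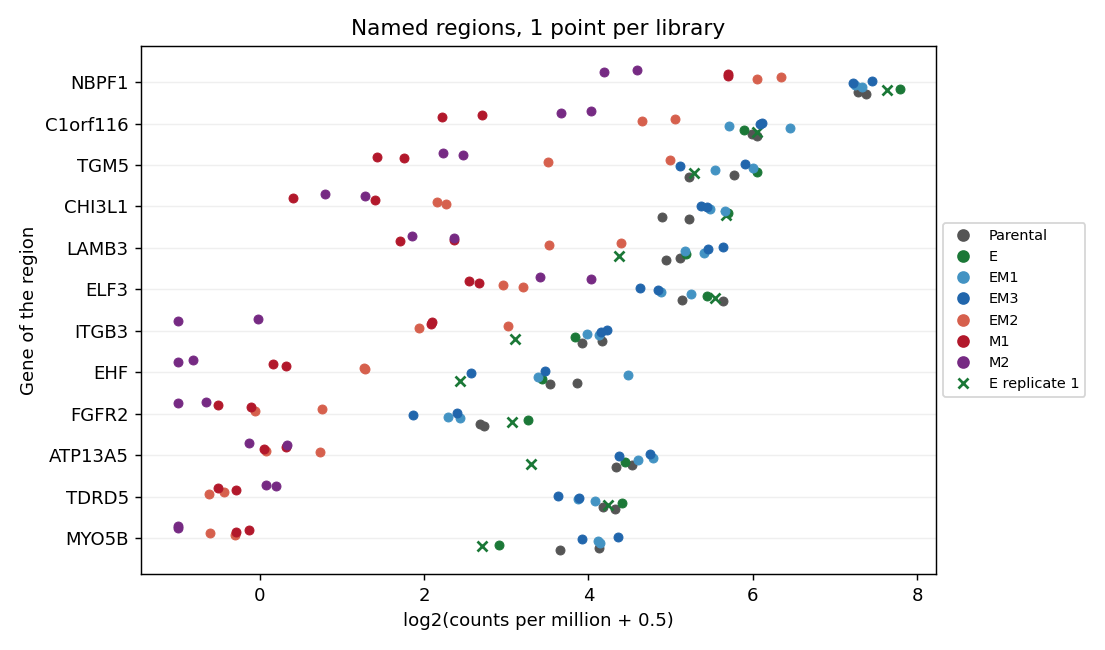
Levels at 12 of the named regions, as log2(CPM + 0.5), with 1 row per region and 1 point per library coloured by group; a cross marks E replicate 1. The points of EM2, M1 and M2 lie to the left of the others, except that at LAMB3 the higher EM2 point is level with the cross.

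By size of gap, the first was a region of ATP13A5 (chr3:193335019-193335451), a P5-type ATPase of the endomembrane system, with a gap of 4.03. Its 7 open libraries ran from 19.7 to 27.1 CPM, E replicate 1 had 9.34 CPM, and its closed libraries ran from 0.413 to 1.16 CPM. Here E replicate 1 was below the other open libraries and above every closed one. The TDRD5 region shown above was the second, with a gap of 3.63. MTARC1, a molybdenum enzyme of the mitochondrial outer membrane (chr1:220788302-220788552), had a gap of 3.31, with 10.3 to 17.3 CPM in the open libraries and 0 to 1.24 CPM in the closed ones. MYO5B, a myosin motor for apical recycling in polarised epithelia (chr18:49838996-49839392), had a gap of 3.12, with 7.002 to 19.98 CPM in the open libraries, 6.02 CPM in E replicate 1 and 0 to 0.411 CPM in the closed ones. Both libraries of M2 had 0 counts at MYO5B. The others were ZNF732, CCDC181, TWSG1 and CYP7B1, with gaps of 2.997, 2.99, 2.94 and 2.92. TWSG1, which encodes a secreted binder of bone morphogenetic proteins (chr18:9366180-9366563), had 6.34 to 9.82 CPM in the open libraries and 0.137 to 0.397 CPM in the closed ones. In these 8 regions no library of EM2 had more than 1.24 CPM.

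The lists of epithelial genes held few closed regions each, so their shares rest on small counts. Of 118 regions assigned to epithelial transcription factors, 3 were closed in EM2, M1 and M2 (2.54%, against 1.16% of all regions), 1 at ELF3 and 2 at EHF. The region of ELF3, an ETS factor of epithelial differentiation, lies 29069 bp outside the gene, at chr1:202046252-202047424. It had 24.2 to 49.1 CPM in the 7 open libraries and 46.0 CPM in E replicate 1. It had 8.74 and 7.30 CPM in EM2, 5.87 and 5.34 CPM in M1, and 15.8 and 10.1 CPM in M2. M2 was the highest closed group at the region of ELF3 and EM2 was near M1. EHF, its close relative, had 5.42 to 21.8 CPM in the 7 open libraries at chr11:34620746-34621022, which lies 71 bp outside the gene, and 4.91 CPM in E replicate 1, against 1.93 and 1.91 CPM in EM2, 0.747 and 0.616 CPM in M1 and 0 and 0.0688 CPM in M2. At the second EHF region, chr11:34668104-34668483, EM2 had 3.17 and 2.06 CPM and the 7 open libraries had 6.02 to 12.8 CPM.

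Of 140 regions of desmosome and hemidesmosome genes, 2 were closed, at LAMB3 and at the desmosomal cadherin DSG2 (chr18:31490523-31490729). DSG2 had 5.36 to 12.2 CPM in the 7 open libraries, 6.14 CPM in E replicate 1, 2.16 and 5.40 CPM in EM2, 0 and 0.479 CPM in M1 and 1.51 and 1.93 CPM in M2. The higher EM2 library at DSG2 thus reached the lowest open one. None of 105 regions of epithelial adhesion and polarity genes and none of 51 keratin regions was closed in EM2, M1 and M2, which at 1.16% of all regions is near the background for lists of this size. Of the same regions, 42 (40.0%) and 9 (17.6%) were closed in M1 and M2 with EM2 open, against 8.46% of all regions. EM2 open is meant there as defined below, by its level above the M clones only. The basal and p63-linked list gave 1 of 124 regions, at the receptor FGFR2 (chr10:121553840-121554173), with 3.16 to 9.11 CPM in the 7 open libraries and 0 to 1.19 CPM in the closed ones.

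The other lists gave 1 or 2 regions each or none. SNAI1, an EMT repressor, was the 1 of 68 regions of EMT transcription factors, with 3.51 to 9.93 CPM in the 7 open libraries at chr20:49969955-49970304 and 1.16 and 3.41 CPM in EM2, 0.534 and 0.548 CPM in M1 and 0.108 and 0 CPM in M2. That region near a gene of the mesenchymal program was therefore open in Parental, E, EM1 and EM3 and low in M1 and M2. ITGB3, the integrin beta 3 chain, was the 1 of 174 mesenchymal effector regions (chr17:47275284-47275719), with 13.8 to 18.2 CPM in the 7 open libraries, 8.11 CPM in E replicate 1 and 0 to 7.62 CPM in the closed ones. Wnt genes gave 2 of 182 regions, at the nuclear effector TCF7L2 and the receptor FZD6. Genes of the EGFR and ERBB receptors gave 2 of 146, at the ligand NRG1 and the receptor ERBB2. NF-kB and cytokine genes gave 1 of 97, at the inhibitor-like factor NFKBIZ (chr3:101886648-101887015), with 8.34 to 23.0 CPM in the 7 open libraries, 1.16 and 2.06 CPM in EM2 and 0.107 to 0.205 CPM in the M clones. EM2 stayed above the M clones at NFKBIZ, and open and closed libraries did not overlap.

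Among the remaining lists, Hippo and TEAD genes gave 1 of 178 regions (WWC1, an upstream activator of the pathway), luminal identity 1 of 59 (PGR, the progesterone receptor gene), collagens and matrix proteases 1 of 177 (COL4A2, a basement membrane collagen), and housekeeping genes 1 of 37 (YWHAZ, from a distance of 47 kb). TGF-beta (0 of 205), AP-1 (0 of 57), interferon and antigen presentation (0 of 62), endothelial (0 of 46) and blood cell markers (0 of 22) gave none. Over all 19 lists, 17 of 2012 regions were closed in EM2, M1 and M2 (0.845%), below the 1.16% of all regions. The regions closed in M1 and M2 with EM2 open made up 11.5% of the list regions and 8.46% of all regions. The lists describe what lies nearby, and assignment to the nearest gene does not say which gene a region acts on.

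By position the regions were mostly far from gene starts. A protein-coding gene lay within 50 kb of 495 of them (65.0%, against 80.3% of all regions). Inside such a gene were 318 (41.8% against 43.8%), at one of its ends 14 (1.84% against 13.4%) and outside it 163, while 266 had none within 50 kb (35.0% against 19.7%). Of the 728 regions off chromosome 8, for which starts were at hand, 24 lay within 1 kb of the start of a protein-coding gene (3.30% against 17.1%), and the median distance to the nearest start was 84.7 kb against 37.4 kb. Most of the set was thus distal, and its shares near starts were below those of all regions. Exons, introns and untranslated regions were not told apart, because the gene table used here gives only gene bounds. Their median width of 378 bp was close to the 407 bp of all regions.

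The regions most like them were the 5562 others that were closed in M1 and M2 with EM2 open, chosen on the same scale as M1 and M2 each at least 1 below the lowest of the other 5 groups. Here EM2 open means only that EM2 was at least 1 above both M clones, and it may still lie below the open groups. The 129 regions that failed only the second condition of the choice are therefore among the 5562. A further 256 regions met both definitions. Those 5562 were also distal but nearer to genes, with 76.9% within 50 kb of a protein-coding gene, 4.24% within 1 kb of a start and a median distance of 52.1 kb. On each of the 3 measures they lay between the 761 and all regions. These shares are descriptions, since neighbouring regions are not independent of each other.

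The 495 of the 761 regions with a protein-coding gene within 50 kb were spread over 447 nearest genes, of which 403 had 1 region, 40 had 2 and 4 had 3. The 4 were ATP13A4 (3 of its 5 regions), GPR37L1 (3 of 5), RETREG1 (3 of 10) and SORCS3 (3 of 10). Both regions of CCDC181, whose product is a microtubule-binding coiled-coil protein, and 2 of the 3 of ATP13A5 were closed. The 2 CCDC181 regions had 3.82 to 8.71 CPM in the 7 open libraries and 0 to 0.62 CPM in the closed ones. At RETREG1, the receptor for selective autophagy of the endoplasmic reticulum, the region chr5:16508799-16509487 had 18.9 to 21.2 CPM in the 7 open libraries, 14.1 CPM in E replicate 1, 4.72 and 5.08 CPM in EM2, 4.16 and 3.15 CPM in M1 and 0.323 and 0.138 CPM in M2. EM2 and M1 were alike there and M2 was lower still. The 3 regions of SORCS3, a sorting receptor of neurons, lay on chromosome 10, and at chr10:105149357-105149907 EM2 was lower than M1, with 0.618 and 0.556 CPM against 1.39 and 2.05 CPM.

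Chromosome 18 had the largest share of its regions closed, 44 of 1474 (2.99%), followed by chromosomes 5 (2.01%), 9 (1.84%), 3 (1.70%) and X (1.67%), and chromosome 19 had the smallest share (0.360%) apart from chromosome Y, with 0 of 4. On chromosome 18 the regions outside the set also had lower levels than in Parental, with median log2 differences of -0.30 in EM2, -0.28 in M1 and -0.40 in M2. A loss of DNA copies and a loss of accessibility give the same fall in counts and cannot be told apart in this assay alone, and copy number was not measured. The surroundings of each closed region were therefore read from the other regions within 1 Mb. Their median difference from Parental had a median over the 761 of -0.06 in EM2, -0.04 in M1 and -0.27 in M2. It was below -1 at 45 closed regions in EM2, at 36 in M1 and at 132 in M2. It was below -1 in all 3 clones at 5 and in none at 581, and in none of the 3 was it below -0.5 at 396.

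With the median difference of each 10 Mb window removed before the rule was applied, 657 regions were kept, of which 545 were among the 761. Within 50 kb of another closed region were 96 of them. The densest 1 Mb window was on chromosome 3, from 193 to 194 Mb, where 12 of 30 regions were closed, over PLAAT1, ATP13A5 and ATP13A4. The other 18 regions of that window were lower than in Parental too, by a median of -1.58 in EM2, -1.46 in M1 and -1.54 in M2, and 10 of the 18 were at least 1 lower in all 3 clones. The fall was thus shared by most of the window rather than by single regions. The part of copy number in it was not tested.

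**Figure D4:**
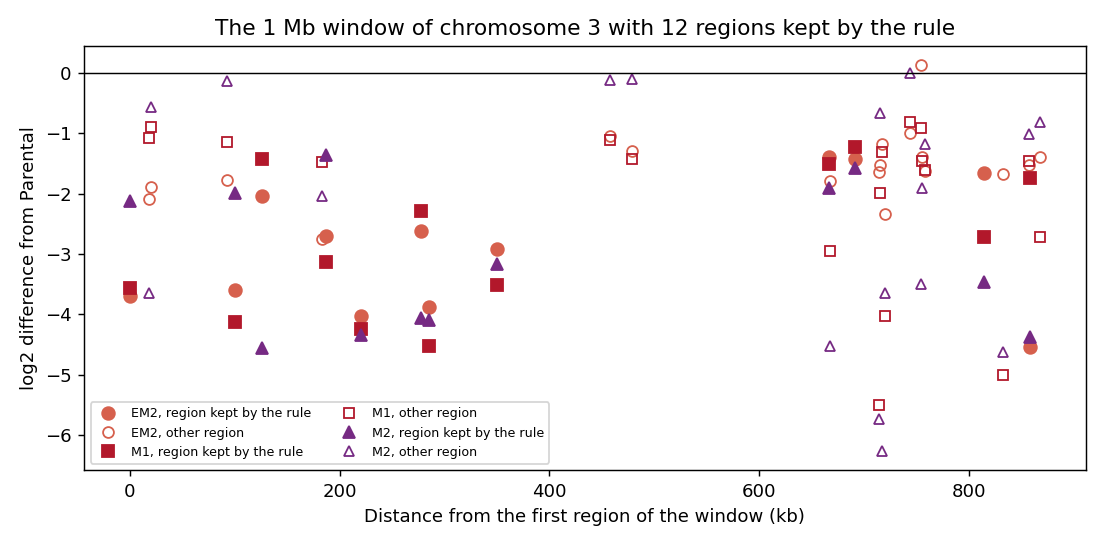
Log2 differences from Parental in EM2, M1 and M2 of all 30 regions in the densest window, on chromosome 3, by distance from the first region of the window in kb. Filled points are the 12 regions closed by the rule and open points the other 18. Most of the other 18 are also below zero, with medians of -1.58 in EM2, -1.46 in M1 and -1.54 in M2.

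PLAAT1, a phospholipase and acyltransferase whose promoter is shown above, had 26.2 to 35.9 CPM in the 7 open libraries at chr3:193240732-193241704 and 22.9 CPM in E replicate 1. It had 8.19 and 6.35 CPM in EM2, 11.95 and 10.7 CPM in M1, and 0.861 and 0.826 CPM in M2. M2 was thus the lowest group and EM2 was below M1. At the ATP13A4 region chr3:193391848-193392310 the 7 open libraries had 31.1 to 43.5 CPM and the closed ones 5.49 and 4.84 CPM in EM2, 7.36 and 6.02 CPM in M1 and 2.05 and 1.24 CPM in M2. The order of the closed groups was the same at these 2 regions.

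Other dense windows differed in their surroundings. On chromosome 5 from 56 to 57 Mb, 6 of 37 regions were closed and the other 31 had medians of -1.03 in EM2, -0.52 in M1 and 0.27 in M2. On chromosome X from 85 to 86 Mb, at POF1B, an actin-binding protein of epithelial junctions, 5 of 10 were closed and the other 5 had medians of 0.20, 0.50 and 0.06 in the same order. On chromosome 10 from 105 to 106 Mb, at SORCS3, 5 of 15 were closed and the other 10 had medians of -0.52, 0.06 and -0.68. Of these windows, the one on X was that in which the median of the neighbours was not below zero in any of the 3 clones. On chromosome 15 from 87 to 88 Mb, 5 of 24 were closed, with no gene within 50 kb of them.

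The 2 M clones were both on the closed side of the choice. It set no threshold on their difference, but it held both below the open groups, which bounds how far either can rise above the other. By edgeR's quasi-likelihood F test with Benjamini-Hochberg adjustment over 65771 regions, 246 of the 761 differed between M2 and M1 (32.3%) at an adjusted p under 0.05, against 56.3% of all regions tested. Of the 246, 84 were higher in M2 and 162 lower (background 27.2% higher and 29.1% lower). The median log2 change was -0.27 against 0.01 over all regions. With only the 4 M libraries in the fit, 377 of the 761 passed the filter and 166 were called (44.0%), against 56.1% of all regions tested; the other 384 pass only through the counts of other groups. Nothing particular to the set is read from these shares, since the low counts and the bound move with them, and their part was not tested. On the scale of the choice, M2 was at least 1 below M1 in 135 regions and M1 at least 1 below M2 in 53.

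At 3 regions with few counts in M1, levels rose in M2. C1orf105 (chr1:172467129-172467353) had 0.213 and 0.137 CPM in M1 against 2.26 and 1.86 CPM in M2, a log2 change of 3.67 (SE 0.48, adjusted p = 3.39e-05, edgeR). The change was 2.40 with the median of its 10 Mb window removed, and the other regions within 1 Mb had median differences from Parental of -0.46 in M1 and 0.80 in M2. VPS13D, a lipid transfer protein (chr1:12488729-12489051), had 0.107 and 0.342 CPM in M1 against 1.94 and 3.51 CPM in M2, a log2 change of 3.60 (SE 0.79, adjusted p = 0.00183, edgeR). The change at VPS13D ran from 3.02 without M2 replicate 2 to 4.69 without M1 replicate 2. At the RETREG1 region chr5:16493207-16493685, M2 had 35 counts and M1 had 3, a ratio of 11.7 with an exact 95% interval from 3.70 to 59.7, which like those below covers counting error only. Its fitted log2 change of 3.56 was 2.27 without M1 replicate 2, and without M1 replicate 1 no count was left in M1. With the window median removed its log2 change was 1.98 and no longer passed the test.

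Another 3 regions were almost without counts in M2. PLPPR5 (chr1:98921875-98922181), a neuronal phosphatase-related membrane protein, had 0 counts in M2 and 51 in M1 (7 and 44 in its 2 libraries), at least 16.9-fold lower when M2 is set to 3 counts over both libraries. PLPPR5 is among the regions that pass the filter only through the counts of other groups, so the fit of only the 4 M libraries gave no value for it. CSMD3 on chromosome 8 had 1 count in M2 and 108 in M1, a ratio of M1 to M2 of 107 with an exact 95% interval from 18.8 to 4275. Its fitted log2 change of -6.39 was -5.76 without M2 replicate 1, and without M2 replicate 2 no count was left in M2. MPDZ, a multi-PDZ scaffold of tight junctions (chr9:13181660-13182058), had 2 counts in M2 and 164 in M1, a ratio of 81.4 with an interval from 22.2 to 678. Its open libraries had 23.4 to 55.0 CPM, EM2 had 13.1 and 12.9 CPM and M1 had 9.18 and 5.34 CPM. The other regions within 1 Mb of MPDZ had a median difference from Parental of -2.07 in M2, -0.36 in EM2 and 0.12 in M1, so that in M2 its neighbours were low as well. Its fitted log2 change of -6.10 was -3.97 with the median of its 10 Mb window removed.

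On the open side, EM1, EM3 and E were each compared with Parental. These comparisons share the Parental libraries, and the condition that all 4 groups stay above the closed ones limits how far any of them can fall in the set. None of the 761 regions differed between EM1 and Parental by edgeR, where 0.628% of all regions were called. Of the 761, 81 had an unadjusted p under 0.05 by edgeR, a share not taken over all regions. The DESeq2 Wald test called 8, against 1197 of all regions. With the replicate number as a block in the edgeR fit 14 were called, against 1601 of all regions. In the main fit the median log2 change was 0.03. A count of 0 with 2 libraries a group does not show that the levels were equal.

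Between EM3 and Parental, 28 of the 761 were called by edgeR (3.68%, against 3.11% of all regions), 4 higher and 24 lower (background 1.85% and 1.26%), with a median log2 change of -0.13 against 0 over all regions. Lower calls were 3.15% of the 761. With only the 4 libraries compared, 102 were called (13.4%, against 8.70% of all regions). The DESeq2 Wald test called 46, against 3644 of all regions. The replicate number as a block in the edgeR fit gave 81, against 5482 of all regions. Without E replicate 1, which is not part of this comparison, the median log2 change was again -0.13. It depended on the EM3 library, with -0.01 without EM3 replicate 1 and -0.30 without EM3 replicate 2. Of those named, PNKD rose in EM3 by 1.72 (log2, SE 0.31, adjusted p = 0.012, edgeR), from 3.87 and 2.61 CPM in Parental to 10.6 and 11.5 CPM at chr2:218297930-218298389. ALDH8A1, an aldehyde dehydrogenase, rose by 1.32, from 4.32 and 5.47 CPM to 10.9 and 14.5 CPM. TNFSF15, a cytokine of the tumour necrosis factor family (chr9:114811375-114811624), fell by 2.21 on the log2 scale, from 11.98 and 16.3 CPM to 3.93 and 2.28 CPM. PTPRM, a receptor phosphatase of cell contacts, fell by 2.13, from 11.4 and 8.33 CPM to 2.62 and 1.97 CPM, and MAPRE2, a microtubule plus-end protein, by 2.41, from 11.6 and 14.8 CPM to 1.67 and 3.62 CPM. These calls rest on all 4 libraries. Few or none of the 28, and far fewer of all regions, were called in the fits that left 1 of the 4 out. Among the named regions only TNFSF15 kept its call in any of these, without EM3 replicate 1.

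Between E and Parental, 45 of the 761 were called by edgeR (5.91%, against 11.6% of all regions), 15 higher and 30 lower (background 5.27% and 6.31%), with a median log2 change of -0.20 against 0.03. Without E replicate 1 the count was 19 (2.50%, against 5.16% of all regions), all of them among the 45, and the median was -0.08. Fewer were called without either Parental library, in the set and among all regions. The median log2 change was then -0.23 without Parental replicate 1 and -0.15 without Parental replicate 2. With the replicate number as a block in the edgeR fit 100 were called, against 13107 of all regions. A fit of only the 4 libraries compared called 46 (6.0%, against 7.05% of all regions), so there the share in the set was near that of all regions.

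PKHD1, the fibrocystin gene of ciliated epithelia (chr6:51736832-51737284), fell in E by 2.71 on the log2 scale (SE 0.36, adjusted p = 0.0011, edgeR), from 13.96 and 14.4 CPM in Parental to 1.597 and 2.78 CPM. The ATP13A4 region chr3:193464940-193465265 fell by 2.29, from 6.76 and 5.64 CPM to 1.11 and 1.44 CPM. Both calls held when each of the 4 libraries was left out in turn, and both regions were still higher in E than in the closed libraries. PIK3C2G, a class II phosphoinositide kinase, fell by 2.18, from 9.37 and 8.59 CPM to 0.860 and 3.11 CPM, and this call was lost without E replicate 1, where the change was -1.55, and without either Parental library. PNKD rose in E by 1.52, to 9.46 and 9.56 CPM. PTGS1, the constitutive cyclooxygenase, rose by 1.598, from 6.49 and 6.99 CPM to 19.2 and 22.5 CPM. The region within ERBB2 (chr17:39716913-39717194) rose by 1.503, from 3.69 and 2.27 CPM to 9.71 and 7.56 CPM, while EM2, M1 and M2 had 0.309 to 0.548 CPM. The calls at PTGS1 and ERBB2 were lost without either Parental library, that at ERBB2 also without E replicate 1, and that at PNKD without Parental replicate 2.

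**Figure D5:**
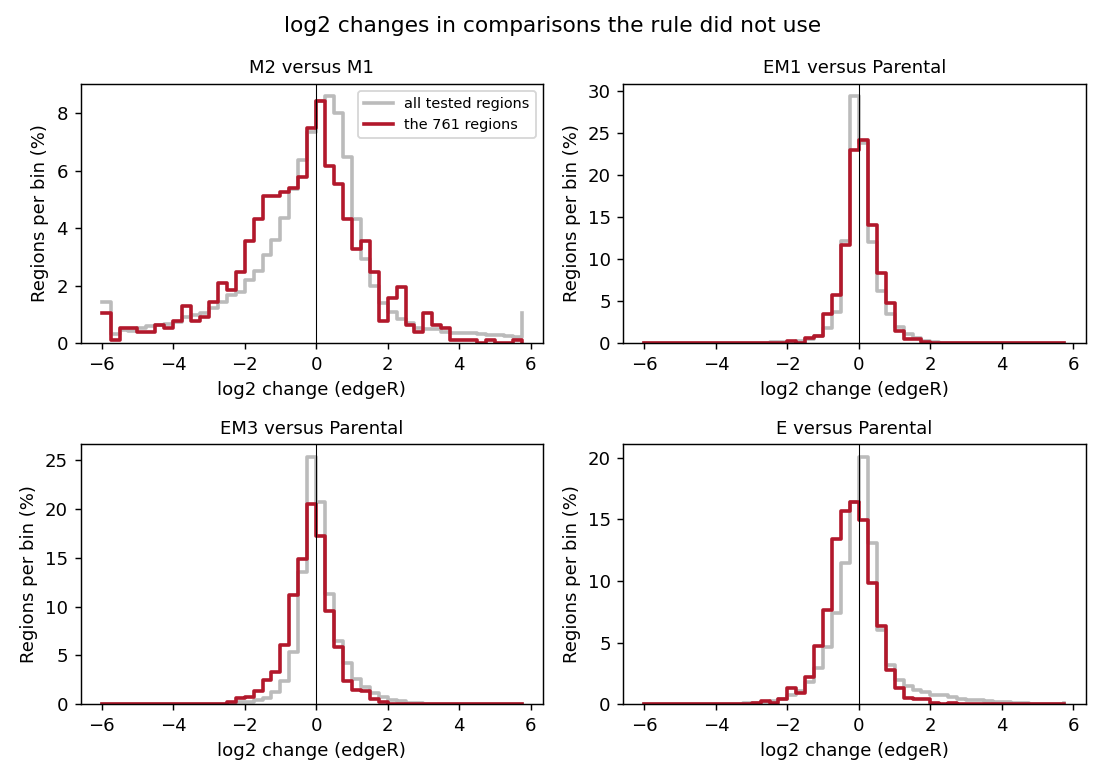
Log2 changes of the 761 regions, and of all regions tested, in the comparisons that the choice of regions did not use, M2 versus M1 and EM1, EM3 and E versus Parental, as the percentage of regions per bin of log2 change, with the outermost bins holding everything beyond them. The medians of the 761 are -0.27, 0.03, -0.13 and -0.20.

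For completeness, the difference of EM2 from Parental was one that the choice used. Of the 761 regions, 652 were called lower there by edgeR, where 6.17% of all regions were, and nothing is read from that count. All 761 passed the filter on low counts over 14 libraries.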

How the data were processed

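The 14 columns of the count table were deposited by the authors as raw counts per region and library, in 65774 regions on hg38, and were matched to libraries by name. The tools named in the submitters' processing notes, with no role stated, are Bowtie2 2.2.6, MACS2 2.1.1, featureCounts, Picard, deepTools, cutadapt 1.9.1 and bcl2fastq 2.20.0.422. The merging of regions and any shift of cut positions for Tn5 are not given in the sources used here. Neither the interval file nor the peak lists were used; several of the latter name another clone than the sample they are recorded under.

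The regions, gene lists and tests were chosen with earlier results of these data known. Levels are counts per 1000000 of the column total (CPM). Differences were tested in R 4.3.3 by the quasi-likelihood F test of edgeR 4.0.16, with TMM scaling, filterByExpr at a minimum count of 10 (65771 regions left) and 7 group means over 14 libraries, with Benjamini-Hochberg adjustment over all regions and calls at 0.05. The common biological coefficient of variation was 0.208. Tests were checked on simulated data. Log2 changes come from this fit. A group with 0 counts was set to 3 counts over both libraries for a fold, and exact intervals are binomial at 95% and cover counting error only.

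Each region took the protein-coding gene that holds it or, up to 50 kb away, the closest one in a RefSeq gene table. Promoters and microRNAs came from RefSeq (GRCh38.p14), with none on chromosome 8. Named regions were the 8 with the highest open level and the 8 with the largest gap (gene within 10 kb, each gene once), up to 3 per list, those of the 6 genes with most regions, the 3 largest and 3 smallest called changes per comparison with non-overlapping libraries, those beside each limit, and the 5 densest 1 Mb windows. Alternatives were other scalings, offsets and limits, both E libraries, no filter, DESeq2 1.42.0, a replicate block, 4-library fits, removal of medians of 10 Mb windows holding 20 regions or more, and omission of each library.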

Additional observations from a re-analysis of the deposited data

How the results depend on the processing

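The number of closed regions was 299 with a gap of at least 1.5, 107 with a gap of at least 2 and 505 with EM2 under 1 above the M clones. These are stricter limits and keep fewer regions by construction. It stayed between 647 and 890 under other scalings, constants, both E libraries, window medians removed or no limit on EM2, and between 675 and 1110 without single libraries. The regions kept changed more than their number. Those shared with the 761 were 545 to 761 under the former settings and 556 to 740 without single libraries. The counts called in M2 versus M1 stayed within 1.5 times (182 to 252 closed regions and 28903 to 38212 of all regions without single libraries). For EM1 versus Parental (0 closed regions; 413 of all regions), 1 closed region was called with column totals and 1 with DESeq2 size factors, 13 with only the 4 libraries, 8 with the DESeq2 Wald test and 0 to 3 without single libraries. Of all regions the calls were 1132, 1197, 228 with window medians removed, and 2 to 718 without single libraries. For EM3 versus Parental (28; 2047), 4 libraries gave 102 and 5469, the DESeq2 Wald test 46 and 3644, and single omissions 0 to 46 and 108 to 3158. For E versus Parental (45; 7610), 4 libraries gave 4447 of all regions and single omissions 7 to 56 and 1235 to 9269. The cause was not tested. A group left with 1 library was assumed to vary like the others.

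With the replicate number as a block, the closed regions called were 14 (EM1), 81 (EM3) and 100 (E) versus Parental, and of all regions 1601, 5482 and 13107. Same-numbered libraries deviated together in 19 of 21 pairs of groups by more than 0.1 (correlations 0.02 to 0.59, median 0.27). This was not so in every pair, so the main fit had no block, and its counts versus Parental are lower than the blocked ones. Of the log2 changes of single regions under other settings, 168 kept their side of the threshold, 29 no longer passed and none changed sign. The motif search in 300 bp of each region and its alternative over whole regions were not run, for want of a genome. Depth limits the lowest levels, with 150 regions at 3 counts or fewer in M2.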
